A study of Mus musculus with 12 samples.

Results

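The genes described here are 10 mouse genes for surface or secreted ligands that bind receptors of T cells and natural killer (NK) cells, apart from PD-L1 itself. They were chosen by name (Cd276, Pvr, Raet1e, Raet1d, Tnfrsf14, Lgals9, Cd80, Cd86, Icosl and Vtcn1), and each has 1 of the 51826 gene rows in the deposited tables. Poly-A RNA was sequenced from 12 samples of MC38, a mouse colorectal carcinoma cell line, in 4 groups of 3 libraries: wild-type cells without treatment, wild-type cells given IFN, Smarcd1 knockout cells without treatment, and Smarcd1 knockout cells given IFN. The product of Smarcd1 is part of SWI/SNF, a complex that moves nucleosomes. The kind of interferon, its dose and duration, the method of knockout and the number of clones behind it are given nowhere in the sources used here. Groups follow the sample titles. In 6 libraries the genotype and treatment characteristics say otherwise, exchanging the wild-type cells with IFN and the untreated knockout cells. Under those characteristics the values below would stay as they are, but the comparison called IFN in wild-type cells and the one called knockout without IFN would exchange names, as would IFN in knockout cells and knockout with IFN. The interaction of knockout and IFN would be unchanged.

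T cells read a target cell through an antigen receptor and through further receptors that raise or lower the response. CD80 and CD86 bind CD28 and CTLA-4, ICOS ligand (Icosl) binds ICOS, and B7-H3 (Cd276) and B7-H4 (Vtcn1) are relatives of the same B7 family whose receptors are less settled. Galectin-9 (Lgals9) is a sugar-binding protein known as a ligand of TIM-3, PVR (CD155) binds DNAM-1, TIGIT and CD96, and HVEM (Tnfrsf14) binds BTLA and CD160. The mouse RAE-1 proteins, encoded by Raet1d, Raet1e and related genes, are stress-induced ligands of the activating NK receptor NKG2D.

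Smarcd1 itself was lower but present in every library labelled knockout, at 49.4 to 54.9 CPM (counts scaled to a common library size) without IFN and 58.7 to 60.6 CPM with IFN, against 81.8 to 106 CPM and 86.5 to 123 CPM in wild-type cells. The level goes with the titles: between the groups they name, knockout lowered Smarcd1 without IFN (-0.82 ± 0.13, SE, edgeR adjusted p = 0.000814) and with IFN (-0.79 ± 0.13, edgeR adjusted p = 0.00109), while IFN gave 0.18 ± 0.13 in wild-type cells (edgeR adjusted p = 0.433) and 0.22 ± 0.13 in knockout cells (edgeR adjusted p = 0.314). Of the exon bases of Smarcd1, 12.7% overlap those of other genes on the opposite strand. Their reads could not be separated here, because the strand setting of the counting is not given. Libraries held 31752685 to 45721356 counts. Wild-type replicate 2 stood apart with 4.82% of its counts on mitochondrial genes, against 1.61% and 1.62% in the other 2 wild-type libraries. Most markers of colon epithelium stayed low in this colorectal carcinoma line. Epcam and Cdx2 had 0 counts in all 12 libraries. Of 8 colon epithelial markers 2 (Cdh1 and Krt19) reached 1 TPM (a level per transcript length and library size) in any group, whereas 5 of 7 fibroblast markers did, Col1a1 and Pdgfrb among them. Of the T cell markers 3 of 8 passed the filter on low counts (Cd3d, Cd3e, Cd3g, Cd8a and Cd8b1 had 0 counts), of the NK markers 1 of 5 (Ncr1 at 0 counts) and of the macrophage and dendritic cell markers 4 of 10 (Adgre1 at 0 counts). The summed TPM of the fibroblast list was 265 to 273 in wild-type cells, 256 to 275 with IFN, 212 to 215 in knockout cells and 145 to 148 in knockout cells with IFN. The T cell list summed to 13.6 to 21.9 TPM without and 21.1 to 23.04 TPM with IFN in wild-type cells, and to 8.12 to 10.8 and 8.64 to 9.37 TPM in knockout cells, most of it from Lck (17.4 TPM in untreated wild-type and 9.20 TPM in untreated knockout cells). The macrophage and dendritic cell list summed to 17.8 to 22.96 TPM in wild-type cells, 14.0 to 21.2 TPM with IFN, 9.82 to 13.3 TPM in knockout cells and 9.59 to 12.4 TPM in knockout cells with IFN. Within it Cd74 fell with knockout (-2.75 ± 0.31 without IFN, edgeR adjusted p = 4.72e-05), as did the B cell gene Pax5 (-3.08 ± 0.61, edgeR adjusted p = 0.00739). The other tested genes of the 2 lists were not called for knockout without IFN. Cd68, Csf1r and Fcgr1 had negative estimates (edgeR adjusted p = 0.183, 0.268 and 0.0932), and the B cell gene Cd79a a positive one (1.14 ± 0.74, edgeR adjusted p = 0.321). With IFN, knockout lowered Csf1r (-2.51 ± 0.71, edgeR adjusted p = 0.0299). Cd74 (-2.16 ± 0.30, edgeR adjusted p = 0.000276) and Pax5 (-3.11 ± 0.62, edgeR adjusted p = 0.00764) were lower there too. Cd68, Fcgr1 and Cd79a were not called in that comparison. The colon epithelial list was lower with IFN, at 4.28 to 4.91 TPM without and 1.11 to 1.22 TPM with IFN in wild-type cells, and 2.75 to 3.71 and 0.648 to 1.13 TPM in knockout cells. Some of these lists and genes moved with the same comparisons as several of the ligands below. The part of these lists and genes in those differences was not tested. The fibroblast genes did not all move alike. With IFN in wild-type cells Col1a1 (-1.11), Col1a2 (-1.59) and Pdgfra (-0.43) were called lower and Dcn (0.89) higher. Pdgfrb (-0.18) was not called there. Knockout without IFN lowered Col1a1 (-2.47), Dcn (-1.55) and Pdgfrb (-0.38), while Col1a2 (0.20) and Pdgfra (-0.02) were not called. In bulk RNA, fewer cells expressing a gene and less RNA per cell cannot be told apart.

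Of the 10 ligands, 7 were expressed, taking a mean of at least 1 TPM in at least 1 group as the limit; since TPM is scaled for transcript length, levels can be set side by side between genes. In untreated wild-type cells Lgals9 stood highest with 419 ± 51.4 TPM (SD, n = 3, as for all TPM means here). Pvr followed at 99.6 ± 2.67 TPM and Raet1e at 48.6 ± 1.85 TPM, then Cd276 at 16.5 ± 0.991 TPM. Tnfrsf14 at 8.98 ± 1.19 TPM and Raet1d at 7.60 ± 0.977 TPM overlapped in their libraries, and Icosl was lowest of the 7 at 2.49 ± 0.295 TPM. In the knockout cells with IFN the order was another one. Pvr, at 119 ± 2.57 TPM, and Lgals9, at 117 ± 8.90 TPM, overlapped at the top, Tnfrsf14 was at 28.7 ± 1.65 TPM below Raet1e at 35.4 ± 0.499 TPM, and Cd276 had come down to 3.08 ± 0.299 TPM, within the range of Raet1d. Cd80 had 23 counts in all, spread over 5 libraries, and its highest group mean was 0.149 TPM. Cd86 and Vtcn1 had 0 of 448500825 counts, which allows a level of up to 0.00669 CPM over the 12 libraries (3 counts, counting error only).

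**Figure D1:**
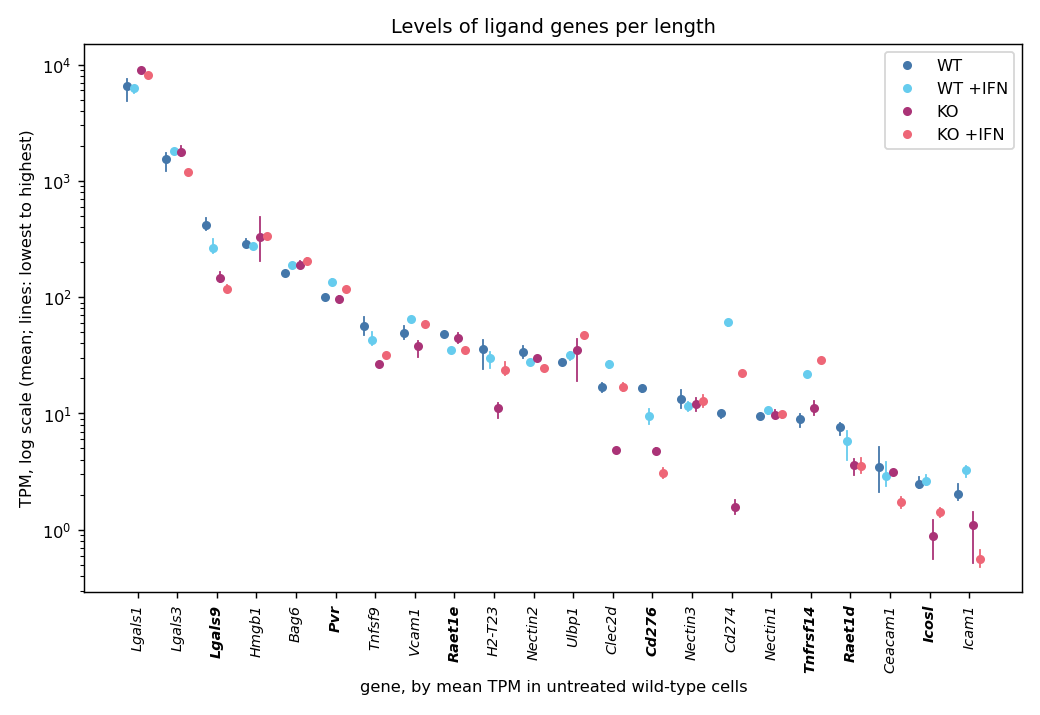
Level of the 7 expressed ligands (bold names) among other T and NK receptor ligands, as mean TPM per group on a log axis with lines from the lowest to the highest of 3 libraries. Lgals9 ranges from 117 TPM in knockout cells with IFN to 419 TPM in untreated wild-type cells, and Icosl sits lowest of the 7 with 0.881 to 2.64 TPM.

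The 7 expressed ligands were also the ones that passed the filter on low counts, and edgeR's quasi-likelihood test with Benjamini-Hochberg adjustment over 16676 genes was read at an adjusted p of 0.05. None of the 7 owed its passing to a single group, since the lowest library value among them, 0.810 CPM of Icosl, lay above the filter's 0.271 CPM. With IFN in wild-type cells 2 ligands rose (Pvr and Tnfrsf14) and 3 fell (Cd276, Raet1e and Lgals9), where 9.38% of all genes tested were called, 4.66% higher and 4.72% lower. With IFN in knockout cells Pvr and Tnfrsf14 rose and Cd276 fell, against 12.8% of all genes, 5.47% higher and 7.28% lower. Knockout without IFN lowered 4 of 7 (Cd276, Lgals9, Icosl and Raet1d) and raised 0, where 17.0% of all genes were called, 6.43% higher and 10.6% lower. Knockout with IFN lowered 4 of 7 (Cd276, Lgals9, Icosl and Pvr) and raised 0, where 15.7% of all genes were called, 5.11% higher and 10.6% lower. At an unadjusted p under 0.05 the knockout comparison called 0 further ligands without IFN (4 in all) and 2 further with IFN (6 in all). The 2 further ones were Raet1d, which was lower, and Tnfrsf14, which was higher. DESeq2 called 4 and 5 ligands there, and limma on log2(TPM + 0.5) 4 and 3. Shares of all genes are not given for the unadjusted p or these 2 tools, so these counts have no background beside them. The median log2 fold change of the 7 was -0.34 for IFN in wild-type cells, 0.03 for IFN in knockout cells, -1.08 for knockout without IFN and -0.71 for knockout with IFN, while the median of all genes tested lay between -0.01 and -0.00 in these 4 comparisons.

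**Figure D2:**
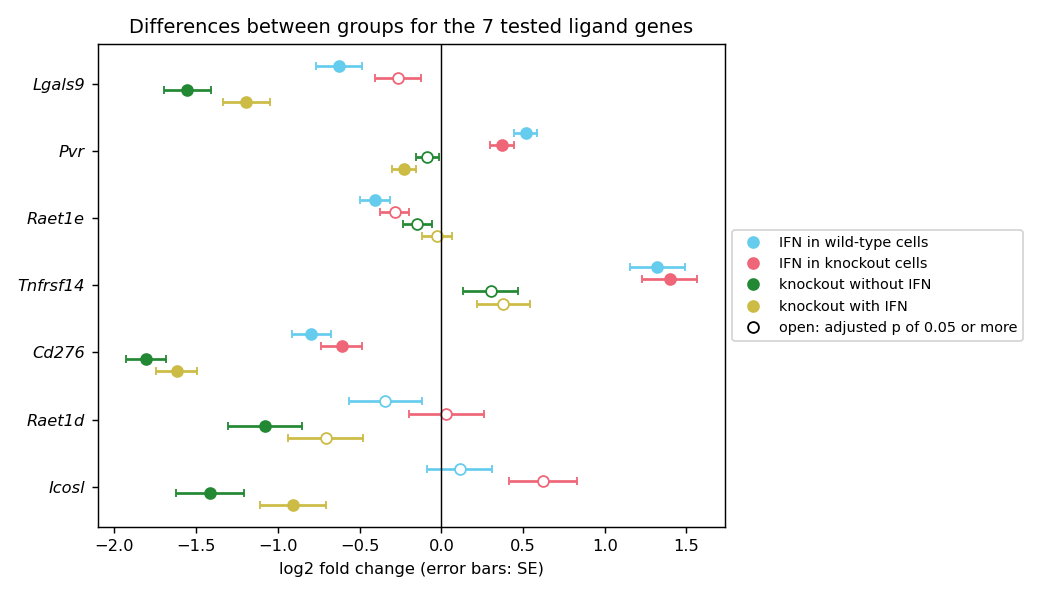
Log2 fold change of the 7 tested ligands in 4 comparisons, with bars of 1 standard error and open symbols where the adjusted p was 0.05 or above. Cd276, Lgals9 and Icosl lie below 0 in both knockout comparisons, and Pvr and Tnfrsf14 lie above 0 in both IFN comparisons.

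Whether knockout altered the response to IFN was tested as the interaction of the 2 factors. edgeR called 0 of the 7 ligands, with 0 at an unadjusted p under 0.05, and DESeq2 and limma called 0 as well, where edgeR called 1.02% of all genes, 0.708% with a positive and 0.312% with a negative interaction. The largest interaction estimate was that of Icosl, 0.51 ± 0.29 on the log2 scale (SE, edgeR adjusted p = 0.526). A ligand called in 1 genotype and not in the other, such as Lgals9 or Raet1e with IFN, was therefore not shown to respond differently between genotypes.

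Within the B7 family, Cd276 showed the largest knockout difference of the 7. It encodes B7-H3, a surface protein found on many tumours and fibroblasts. Its gene lies on chromosome 9 at 58524298 to 58555437 on the minus strand (GRCm38), and 11.4% of its exon bases overlap those of the predicted gene Gm10657 on the opposite strand, whose reads could not be separated here because the strand setting of the counting is not given. Untreated wild-type libraries held 26.0, 30.0 and 28.2 CPM of Cd276, wild-type libraries with IFN 15.6, 14.4 and 18.6 CPM, knockout libraries 8.45, 8.51 and 7.13 CPM, and knockout libraries with IFN 5.53, 5.36 and 4.88 CPM. The 4 groups did not overlap and fell in that order. Knockout lowered Cd276 3.49-fold without IFN (log2 fold change -1.80 ± 0.12, SE, edgeR adjusted p = 4.51e-07) and 3.07-fold with IFN (-1.62 ± 0.12, edgeR adjusted p = 2.01e-06). IFN lowered it 1.74-fold in wild-type cells (-0.80 ± 0.12, edgeR adjusted p = 0.00127) and 1.53-fold in knockout cells (-0.61 ± 0.12, edgeR adjusted p = 0.00585).

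**Figure D3:**
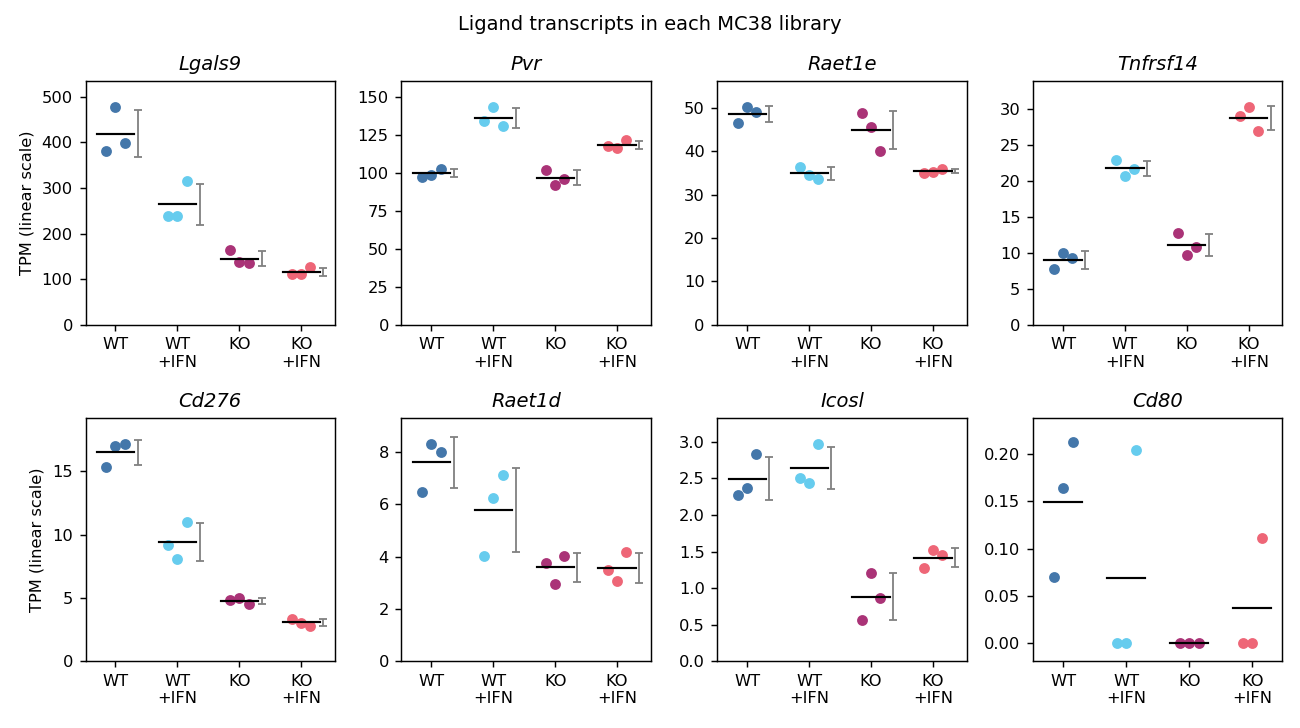
TPM of each of the 7 expressed ligands and of Cd80 in every library by group, with a line at the group mean and a grey bar of 1 SD (mean line only for Cd80). For Cd276 and Lgals9 the 4 groups are separate and fall from untreated wild-type to IFN-treated knockout cells; for Tnfrsf14 the 2 IFN groups stand above the 2 untreated ones.

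Icosl, the ligand of the costimulatory receptor ICOS, was the least abundant of the expressed ligands and lies on chromosome 10 at 78069302 to 78083913 (GRCm38, plus strand). It measured 2.96, 2.98 and 3.54 CPM in wild-type cells, 3.38, 3.35 and 3.52 CPM with IFN, 0.810, 1.59 and 1.15 CPM in knockout cells and 1.71, 1.86 and 1.90 CPM in knockout cells with IFN. Every knockout library lay below every wild-type library, and the untreated knockout group averaged 0.881 ± 0.322 TPM, the only group mean of an expressed ligand below 1 TPM. Knockout lowered it 2.67-fold without IFN (-1.41 ± 0.21, SE, edgeR adjusted p = 0.00048) and 1.87-fold with IFN (-0.91 ± 0.20, edgeR adjusted p = 0.00881). The 2 wild-type groups overlapped (0.11 ± 0.20, edgeR adjusted p = 0.79). In knockout cells all 3 libraries with IFN lay above the 3 without, but the difference of 0.62 ± 0.21 did not pass in edgeR (adjusted p = 0.0755) and passed in DESeq2 (adjusted p = 0.0495) and without knockout replicate 2, the highest of its group (edgeR adjusted p = 0.0149).

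The other 3 B7 genes were at or near the detection limit. Cd80, one of the ligands that T cells read through CD28, had 2, 5 and 6 counts in the untreated wild-type libraries, 0, 0 and 6 with IFN, 0 in each untreated knockout library, and 0, 0 and 4 in knockout cells with IFN. Summed over a group, there were 13 wild-type counts against 0 knockout counts. With the knockout group set at the floor of 3 counts over the group, scaled to depth, the ratio was 5.45. The lower 95% limit of the ratio, which also covers the counting error of the 13 counts but no spread between libraries, was 3.83. Without the filter on low counts edgeR gave that difference an adjusted p of 0.136. The 13 untreated and 6 IFN-treated wild-type counts have a ratio of 2.04 with a 95% counting interval of 0.724 to 6.55. Cd86, the other CD28 ligand, and Vtcn1, which encodes B7-H4, had no count in any library.

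Lgals9 encodes galectin-9 and was the most abundant of the 10 in 3 of the 4 groups. Its gene lies on chromosome 11 at 78962974 to 78984946 on the minus strand (GRCm38). It measured 287, 362 and 298 CPM in wild-type cells, 181.0, 181 and 251 CPM with IFN, 123, 101 and 99.2 CPM in knockout cells and 85.1, 85.2 and 97.5 CPM in knockout cells with IFN. The groups fell in the same order as those of Cd276 without overlap. Knockout lowered Lgals9 2.94-fold without IFN (-1.55 ± 0.14, SE, edgeR adjusted p = 8.62e-06) and 2.29-fold with IFN (-1.19 ± 0.14, edgeR adjusted p = 9.41e-05). With IFN the level was 1.55-fold lower in wild-type cells (-0.63 ± 0.14, edgeR adjusted p = 0.0149), a call lost without wild-type IFN replicate 1 (edgeR adjusted p = 0.0616) or replicate 2 (0.0749). In knockout cells the change of -0.27 ± 0.14 did not pass (edgeR adjusted p = 0.255). As a ratio within each library, Lgals9 stood 3.89 to 4.83 times above Pvr in TPM in untreated wild-type cells, 1.67 to 2.40 times with IFN, 1.40 to 1.60 times in knockout cells and 0.950 to 1.04 times in knockout cells with IFN.

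Promoter windows were read for 3 short motifs on both strands: the core of the interferon-stimulated response element (GAAA, any 2 bases, GAAA), the gamma-activated site (TTCNNNGAA) and a kappa B site. RefSeq windows of 250 bases before and 50 bases from the transcription start (GRCm38.p6) were held for 8 of the 10 ligands, and those of Pvr and Cd86 were not searched. The response element core occurs in 3.44% of the 32851 promoter windows of all genes, the gamma-activated site in 8.30% and the kappa B site in 0.155%. Among the 8 the core was found in the windows of Lgals9, which was called lower with IFN in wild-type cells alone, a call that did not hold in every alternative, and of Tnfrsf14, which rose with IFN in both genotypes. Those 2 windows are shown because they hold the same interferon motif, with the matches, which hold GAAA at both ends on the opposite strand, in capitals. In Lgals9 (chr11:78984875-78985174, minus strand) they span positions -55 to -46 and 15 to 24, counting the first transcribed base as 0, and in Tnfrsf14 (chr4:154928028-154928327, minus strand) positions -64 to -55.
Lgals9: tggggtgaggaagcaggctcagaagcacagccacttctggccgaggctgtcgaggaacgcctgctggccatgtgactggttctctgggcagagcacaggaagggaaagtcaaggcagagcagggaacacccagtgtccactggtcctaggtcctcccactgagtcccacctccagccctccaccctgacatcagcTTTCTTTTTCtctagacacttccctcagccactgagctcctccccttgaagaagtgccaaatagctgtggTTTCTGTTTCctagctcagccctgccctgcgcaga
Tnfrsf14: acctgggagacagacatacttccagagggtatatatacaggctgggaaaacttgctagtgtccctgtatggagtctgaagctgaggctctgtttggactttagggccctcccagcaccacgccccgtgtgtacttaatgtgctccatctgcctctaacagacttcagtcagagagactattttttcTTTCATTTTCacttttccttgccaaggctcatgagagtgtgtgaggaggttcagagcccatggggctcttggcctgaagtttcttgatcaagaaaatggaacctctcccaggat
The windows of Cd276, Raet1e, Raet1d, Cd80, Icosl and Vtcn1 held none of the 3 strings. A match describes letters in the window and no binding was measured.

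Tnfrsf14 rose most with IFN among the 7. It encodes HVEM, the ligand of the inhibitory receptor BTLA, and lies on chromosome 4 at 154921933 to 154928563 (GRCm38, minus strand). Untreated wild-type libraries held 3.68, 5.40 and 4.97 CPM, wild-type libraries with IFN 12.1, 11.1 and 11.9 CPM, knockout libraries 7.07, 4.77 and 5.52 CPM and knockout libraries with IFN 15.1, 16.6 and 14.0 CPM. All 6 libraries with IFN lay above all 6 without, and the 2 untreated groups overlapped. The rise with IFN was 2.50-fold in wild-type cells (1.32 ± 0.17, SE, edgeR adjusted p = 0.000354) and 2.63-fold in knockout cells (1.40 ± 0.17, edgeR adjusted p = 0.000111). Knockout libraries with IFN all lay above wild-type libraries with IFN, by 0.38 ± 0.16 on the log2 scale, which did not pass (edgeR adjusted p = 0.146) but did when only the libraries of the groups compared were fitted (adjusted p = 0.029) or wild-type replicate 2 and knockout replicate 1 were left out together (adjusted p = 0.0419). That knockout difference was 0.30 ± 0.17 without IFN (edgeR adjusted p = 0.244), so Tnfrsf14 was the 1 tested ligand whose estimate lay above 0 in both knockout comparisons.

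Pvr, the ligand shared by the activating receptor DNAM-1 and the inhibitory receptors TIGIT and CD96, had the smallest standard errors of the 7 in these comparisons. It lies on chromosome 7 at 19903578 to 19921160 (GRCm38, minus strand). It measured 121.4, 121.1 and 127 CPM in wild-type cells, 171, 183 and 174 CPM with IFN, 126, 108 and 115 CPM in knockout cells and 148, 149 and 154 CPM in knockout cells with IFN. Libraries with IFN stood above those without in both genotypes, and the 2 untreated groups overlapped. IFN raised Pvr 1.43-fold in wild-type cells (0.52 ± 0.07, SE, edgeR adjusted p = 0.000726) and 1.29-fold in knockout cells (0.37 ± 0.07, edgeR adjusted p = 0.00436). With IFN, knockout cells lay below wild-type cells by 0.23 on the log2 scale (log2 fold change -0.23 ± 0.07), at an edgeR adjusted p of 0.0498 that sat on the threshold: with DESeq2's size factors it was 0.0537 and with no filter on low counts 0.209, and it was lost in 9 of the 12 fits without 1 library, where it reached 0.0651 (without wild-type replicate 1) to 0.175 (without wild-type IFN replicate 2). It was kept without wild-type replicate 2, knockout replicate 1 or knockout replicate 2.

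Raet1e and Raet1d share much of their sequence. Raet1e is annotated on chromosome 10 at 22158569 to 22374139 and Raet1d at 22360552 to 22374139, both on the plus strand (GRCm38), so that 25.2% of the exon bases of Raet1d also belong to Raet1e. Their coding sequences, of 747 bases for Raet1d and 753 for Raet1e in the GENCODE M21 annotation, differ at 31 of 741 aligned bases (95.8% identity). Of the 1290 windows of 150 bases, the read length, in the Raet1d transcripts, 305 (23.6%) also occur exactly in Raet1e, whereas 0 such windows of the other 8 ligands occur in another gene. The first 120 coding bases of both genes are printed, with the 1 base that differs in capitals. This stretch is more alike than the coding sequences as a whole, which differ at 31 of 741 aligned bases.
Raet1d: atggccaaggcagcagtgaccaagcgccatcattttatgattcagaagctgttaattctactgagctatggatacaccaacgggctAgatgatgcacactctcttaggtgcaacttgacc
Raet1e: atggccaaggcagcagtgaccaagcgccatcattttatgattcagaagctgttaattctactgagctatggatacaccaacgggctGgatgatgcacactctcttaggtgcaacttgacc
How the authors' counting divided reads between the 2 genes is not given in the sources used here, so values for each are uncertain. Of the exon bases of Raet1e, 6.16% also belong to H60b on the same strand. The related genes Raet1a, Raet1b, Raet1c and H60a were not found by symbol in the deposited data.

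Raet1e measured 34.4, 37.4 and 35.4 CPM in wild-type cells, 26.8, 27.0 and 27.1 CPM with IFN, 36.3, 31.9 and 28.7 CPM in knockout cells and 26.4, 26.7 and 26.4 CPM in knockout cells with IFN. The IFN libraries lay below the untreated ones in both genotypes. In wild-type cells the difference was 1.32-fold (-0.41 ± 0.09, SE, edgeR adjusted p = 0.0152), a call lost without wild-type IFN replicate 2 (edgeR adjusted p = 0.0593). In knockout cells it was -0.29 ± 0.09 and did not pass in edgeR (adjusted p = 0.0603), but did in DESeq2 (adjusted p = 0.0316), without wild-type replicate 2 (edgeR adjusted p = 0.036) and without knockout replicate 3 (0.0276). Knockout differences were -0.15 ± 0.09 without IFN (edgeR adjusted p = 0.302) and -0.03 ± 0.09 with IFN (edgeR adjusted p = 0.897).

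Raet1d measured 4.47, 5.85 and 5.43 CPM in wild-type cells, 2.82, 4.37 and 5.23 CPM with IFN, 2.68, 2.001 and 2.76 CPM in knockout cells and 2.46, 2.15 and 2.99 CPM in knockout cells with IFN. All untreated knockout libraries lay below all untreated wild-type libraries, while with IFN the genotypes overlapped. Knockout lowered Raet1d 2.12-fold without IFN (-1.08 ± 0.23, SE, edgeR adjusted p = 0.00581). With IFN the difference was -0.71 ± 0.23 and did not pass in edgeR (adjusted p = 0.0541), but did in DESeq2 (adjusted p = 0.0258), without wild-type replicate 2 (edgeR adjusted p = 0.047) and without wild-type IFN replicate 1 (0.0121), the lowest of its group. The IFN comparisons did not pass in wild-type cells (-0.34 ± 0.22, edgeR adjusted p = 0.395) or in knockout cells (0.03 ± 0.23, edgeR adjusted p = 0.956). In TPM, Raet1e stood 6.04 to 7.17 times above Raet1d in untreated wild-type libraries and 9.94 to 15.3 times in untreated knockout libraries. With IFN the ratios were 4.73 to 9.07 in wild-type and 8.64 to 11.5 in knockout libraries, which overlap.

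For context, 36 other genes for ligands of T and NK receptors were listed, PD-L1 (Cd274) among them. Of these 32 were in the tables, 17 passed the filter and 15 reached 1 TPM in a group. IFN raised 3 of 17 and lowered 0 in wild-type cells, where 4.66% of all genes tested were called higher and 4.72% lower. In knockout cells IFN raised 4 and lowered 1, where 5.47% of all genes were called higher and 7.28% lower. Knockout raised 1 and lowered 6 without IFN, and raised 0 and lowered 5 with IFN. Both lower counts include Cadm1, which passed the filter through the wild-type groups alone and so had to be lower in knockout cells; without it they are 5 and 4 of 16. Lower calls also outnumbered higher ones over all genes tested, at 10.6% against 6.43% without IFN and 10.6% against 5.11% with IFN. The medians of the 17, with Cadm1 included, were -0.20 and -0.34 in the 2 knockout comparisons, nearer 0 than those of the 7. Medians without Cadm1 are not given here.

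Cd274, the ligand of PD-1, measured 18.7, 18.9 and 16.0 CPM in wild-type cells, 113, 102 and 120.04 CPM with IFN, 2.78, 3.11 and 2.36 CPM in knockout cells and 37.9, 40.2 and 41.5 CPM in knockout cells with IFN, 4 groups without overlap. Of its exon bases 14.1% overlap those of a gene on the opposite strand, whose reads could not be separated here. Cd274 rose with IFN in both genotypes (2.65 ± 0.11 and 3.86 ± 0.12, SE), where Cd276, Lgals9 and Raet1e had negative estimates. Knockout lowered it without IFN (-2.70 ± 0.12, edgeR adjusted p = 8.47e-09) and with IFN (-1.49 ± 0.11, edgeR adjusted p = 1.33e-06). Clec2d, a C-type lectin bound by an inhibitory NK receptor, moved the same way in the 4 comparisons (0.69 ± 0.11, 1.83 ± 0.12, -1.82 ± 0.12 and -0.67 ± 0.11 in the same order, all called). H2-T23, the Qa-1 molecule read by NKG2A, fell with knockout without IFN (-1.70 ± 0.21, edgeR adjusted p = 9.07e-05) and rose with IFN in knockout cells (1.16 ± 0.20, edgeR adjusted p = 0.00229).

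Further named members of the list were a TNF-family ligand, adhesion molecules and a galectin. Tnfsf9, the ligand of 4-1BB, fell with knockout without IFN by 1.09 on the log2 scale (-1.09 ± 0.15, SE, edgeR adjusted p = 0.000213). Icam1, the adhesion ligand of LFA-1, fell with knockout in the presence of IFN (-2.52 ± 0.33, edgeR adjusted p = 0.000181), at 3.59 to 4.63 CPM in wild-type and 0.623 to 0.857 CPM in knockout libraries. Lgals3, galectin-3, fell there too (-0.63 ± 0.12, edgeR adjusted p = 0.00343) and with IFN in knockout cells (-0.54 ± 0.12, edgeR adjusted p = 0.0108), the last call being lost without IFN-treated knockout replicate 3. Vcam1, the adhesion ligand of VLA-4, rose with IFN in knockout cells (0.74 ± 0.12, edgeR adjusted p = 0.00145), while its calls for IFN in wild-type cells (0.43 ± 0.12, edgeR adjusted p = 0.043) and for knockout without IFN (-0.41 ± 0.12, edgeR adjusted p = 0.035) were lost when single libraries were left out, wild-type replicate 3 among them in both. Cadm1, a ligand of the T and NK receptor CRTAM, passed the filter only through the wild-type groups. It had 102 counts in untreated wild-type cells against 0 in knockout cells. With the knockout group at the floor of 3 counts over the group its ratio was 42.8, with a lower 95% counting limit of 34.2. With IFN it had 87 against 2 counts, a ratio of 53.9 with a 95% counting interval of 14.5 to 452.

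**Figure D4:**
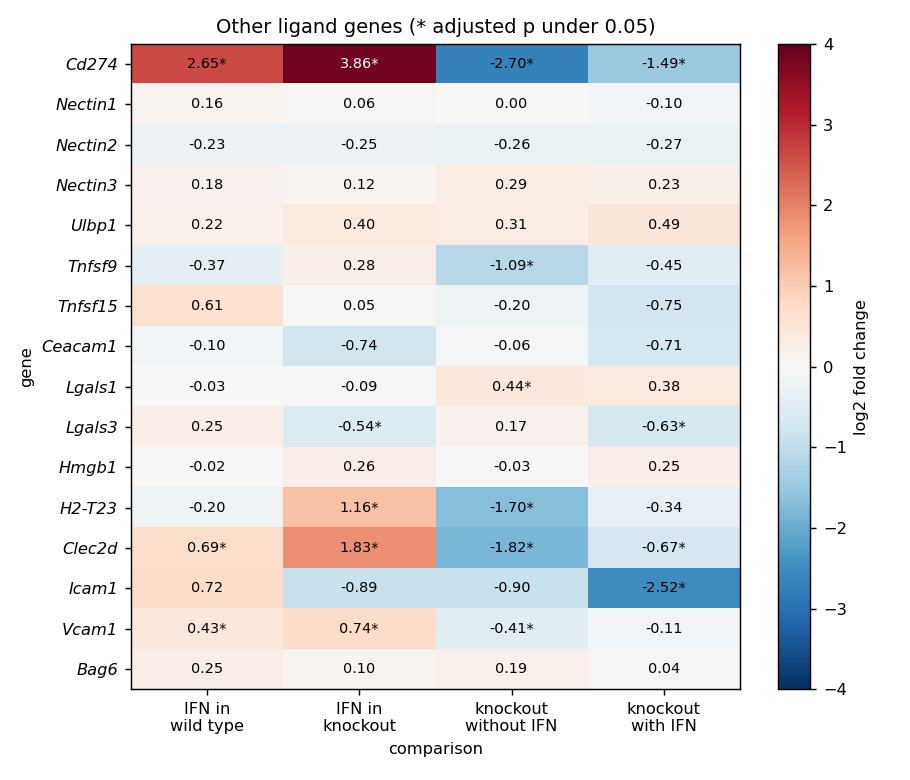
Log2 fold change of 16 other ligands of T and NK receptors in the 4 comparisons, with an asterisk where the edgeR adjusted p was under 0.05 (Cadm1, at 0 counts in untreated knockout cells, is left out). Cd274 and Clec2d are positive in both IFN columns and negative in both knockout columns, with Cd274 reaching 3.86 for IFN in knockout cells.

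Across the 12 libraries the genes most like each ligand in log2 CPM were listed by Pearson's r, as a description: the points fall in 4 groups, so a shared group difference alone gives a high r. For Cd276 they were Btg3 (r = 0.989), Serpinb6b (0.988) and Col1a1 (0.986), the last a fibroblast collagen. For Lgals9 they were Itm2b (0.983), Cd276 (0.981) and Smad3 (0.979). Icosl was most like Plscr2 (0.972), Phf11c (0.970) and Parp9 (0.966). Pvr was most like Plaur (0.978), the urokinase receptor, Cxcl16 (0.976) and Ubr4 (0.975). Tnfrsf14 was most like Adam19 (0.972), Gja4 (0.971) and Rsc1a1 (0.965). Raet1e was most like Mmp19 (0.954), Ap2b1 (0.943) and Sparc (0.932), and Raet1d like Pou4f1 (0.947), Nmt1 (0.945) and Ptprj (0.943). With group means removed, r over the same libraries ranged from 0.06 (Cd276 and Serpinb6b) to 0.91 (Pvr and Cxcl16) among these pairs. It was 0.65 for Lgals9 and Cd276 and 0.27 for Cd276 and Col1a1.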

How the data were processed

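The authors deposited raw counts per Ensembl gene and TPM for 12 libraries of poly-A RNA read as 150 base pairs from both ends. The submitters' processing notes name CASAVA, Trimmomatic 0.36, FastQC 0.11.2, HISAT2 2.1.0 and GRCm38. Which programs counted reads and computed TPM, with which strand setting and annotation, is not given in the sources used here. Among genes with only a few counts in a library, even counts outnumbered odd ones 1.39 to 1.65 times. This is as when both mates are counted, so counting intervals may be too narrow.

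Counts were tested with edgeR 4.0.16 (R 4.3.3): TMM scaling, a filter at a minimum count of 10 and total of 15, which kept 16676 genes, 1 mean per group over all 12 libraries, and quasi-likelihood tests. CPM values are TMM-scaled and fold changes are from this fit. DESeq2 1.42.0 and limma 3.58.1 on log2(TPM + 0.5) were alternatives. The pipeline was tested on simulated data.

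Gene IDs were matched to GENCODE M21 (99.6%). The named genes are the 10 members, up to 6 other listed ligands with the smallest p per comparison among those called, and the 3 genes of highest r per tested member with a mean of at least 2 CPM and no predicted symbol. Members and lists were chosen with earlier results of these data known. Nothing in the labels says that replicates were separate cultures, so p-values measure only the spread between these libraries.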

Additional observations from a re-analysis of the deposited data

Results flagged for a closer look

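By the test of the interaction itself, edgeR (adjusted over 16676 genes) called 3 of the 17 other ligands tested and 0 of the 7 members. Of all genes tested 1.02% were called, 0.708% with a positive and 0.312% with a negative interaction. The 3 called ligands had positive interactions. For Cd274 the rise with IFN, as a ratio, was larger in knockout cells by 1.22 ± 0.16 on the log2 scale (SE, edgeR adjusted p = 0.00127), higher in 3 of 3 IFN libraries over untreated ones in each genotype. Its mean went from 17.9 to 112 CPM in wild-type cells and from 2.75 to 39.9 CPM in knockout cells. For Clec2d the interaction was 1.14 ± 0.16 (SE, edgeR adjusted p = 0.00235). For H2-T23 it was 1.36 ± 0.28 (SE, edgeR adjusted p = 0.0402), with wild-type libraries at 32.5, 18.7 and 30.9 CPM, wild-type IFN libraries at 26.4, 24.7 and 20.3 CPM, knockout libraries at 9.58, 8.80 and 6.88 CPM and knockout IFN libraries at 18.1, 16.9 and 21.5 CPM. That last call was lost with limma (adjusted p = 0.104), with a replicate block (adjusted p = 0.0622) and in 11 of the 12 fits that leave out 1 library. Under the genotype and treatment characteristics these interaction values stay the same.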

How the results depend on the processing

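In all 19 alternatives the calls of Cd276 in 4 comparisons, of Lgals9 and Icosl in both knockout comparisons, of Raet1d for knockout without IFN, and of Pvr and Tnfrsf14 for both IFN comparisons kept their direction and passed. With only the libraries of the groups compared, edgeR called 3 ligands for IFN in wild-type cells, 10 other ligands for knockout with IFN, and 625 and 1497 genes for IFN in wild-type cells and knockout without IFN. DESeq2 called 5 ligands for IFN in knockout cells, and 5 other ligands and 357 genes in the interaction. No share of all genes is given here for those 10 other ligands or for the 5 ligands of IFN in knockout cells. Without wild-type replicate 2 and knockout replicate 1 together, an alternative chosen after seeing the data, 6 other ligands and 2713 genes were called for IFN in wild-type cells, 11 and 4429 for knockout with IFN, and 269 genes in the interaction. Leaving out 1 library at a time gave 3 to 5 ligands, 2 to 4 other ligands and 896 to 1839 genes for IFN in wild-type cells (fewest without wild-type IFN replicate 2), 3 to 4, 4 to 7 and 1352 to 3008 for IFN in knockout cells (fewest without IFN-treated knockout replicate 3), 4 to 4, 5 to 8 and 2019 to 2945 for knockout without IFN, 3 to 5, 5 to 8 and 1728 to 3435 for knockout with IFN (fewest without IFN-treated knockout replicate 1), and 0 to 0, 2 to 4 and 118 to 214 in the interaction, and 7 expressed ligands throughout. Estimates that were not called turned sign for Raet1d with IFN in knockout cells (-0.0072 with limma, and -0.10 to 0.13 over fits without 1 library, negative without knockout replicate 2 or IFN-treated knockout replicate 3), Raet1e for knockout with IFN (0.012 with no filter, 0.022 with limma) and the Tnfrsf14 interaction (-0.045 to 0.24 over fits without 1 library, negative without wild-type replicate 2 or knockout replicate 2). The cause was not tested. Replicate numbers did not pair the libraries (correlations of same-numbered deviations -0.162 to 0.113, and 7 of 24 best matches with the own number). With them as a replicate block, 5, 3, 4, 3 and 0 ligands and 1282, 1869, 2522, 2333 and 143 genes were called in the 5 comparisons. Depth limits Cd80, whose differences could not be resolved beyond the ratios given.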

Other observations

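Of 10 genes for receptors of these ligands, 2 passed the filter and reached 1 TPM in these libraries and 3 (Ctla4, Cd226 and Klrk1) had 0 counts in all 12 libraries. Tigit, an inhibitory receptor for PVR, averaged 21.0 TPM in wild-type cells, 14.9 TPM with IFN, 22.5 TPM in knockout cells and 13.2 TPM in knockout cells with IFN. Its libraries with IFN lay below those without in both genotypes, whereas those of Pvr lay above. It fell with IFN in knockout cells (-0.72 ± 0.12, SE, edgeR adjusted p = 0.00204), and its call in wild-type cells (-0.46 ± 0.12, edgeR adjusted p = 0.0362) was lost in most fits that leave out 1 library, wild-type replicate 1 among them. Havcr2, which encodes TIM-3, the receptor of galectin-9, averaged 10.6 TPM in wild-type cells without and with IFN, 5.51 TPM in knockout cells and 4.86 TPM in knockout cells with IFN. Knockout lowered it without IFN (-0.96 ± 0.12, SE, edgeR adjusted p = 0.000113) and with IFN (-1.14 ± 0.12, edgeR adjusted p = 3.03e-05). Lgals9 was called lower in both of these and also with IFN in wild-type cells, where the Havcr2 difference was 0.05 ± 0.12 (edgeR adjusted p = 0.864). The T cell markers Cd3d, Cd3e, Cd3g, Cd8a and Cd8b1 and the NK marker Ncr1 had 0 counts in these libraries, while Lck, Trac, Cd4 and the NK marker Eomes passed the filter. Lck fell with knockout without IFN (-1.02 ± 0.17, SE, edgeR adjusted p = 0.00104) and with IFN (-1.26 ± 0.17, edgeR adjusted p = 0.000208). Which cells the receptor transcripts came from was not tested.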
